A study of Homo sapiens with 6 samples.

Results

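The genes described here handle iron in the cell: its uptake, its storage, its release and the sensing of its level. They were chosen by a list of 10 gene symbols (TFRC, SLC11A2, STEAP3, SLC39A14, FTL, FTH1, NCOA4, ACO1, IREB2 and SLC40A1), and every probe set annotated to 1 of these symbols alone was taken. A probe set is a group of short probes on the array that are summarised into 1 signal for a transcript. Of the 10 genes, 8 had such probe sets, 22 in all, among 19775 genes on the array with a probe set of their own. FTH1 and IREB2 were not analysed here. The label of the list fitted the genes found, apart from the release of iron: neither probe set of SLC40A1, its only exporter, was measured.

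The cells were WM-266.4, a line from a human metastatic melanoma, with no alteration named beyond the transfection. The siPIR group was given 4 pooled siRNA duplexes that target PIR, which encodes pirin, a nuclear protein that carries an iron atom in a cupin fold. The siCTR group was given 4 pooled non-targeting duplexes, and the NO group underwent transfection with the lipid reagent (Oligofectamine) and no oligonucleotide. The siRNA dose was 200 pmol, in medium without serum, and cells of all groups were collected 72 h later. In each group the RNA of 3 extractions was mixed into 1 pool, and the target labelled from that pool was hybridised to 2 Affymetrix HG-U133 Plus v.2 arrays. The 2 arrays are therefore repeat hybridisations of 1 sample, n is 1 pool per group, and no difference below has a biological replicate. PIR was targeted by 1 siRNA pool alone, and that pool (siGENOME) and the non-targeting one (on-target plus) come from different product lines.

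As background, most cells take up iron bound to transferrin, which the transferrin receptor TFRC carries into endosomes. There the reductase STEAP3 converts ferric to ferrous iron, and the transporter SLC11A2 (DMT1) or the zinc and iron transporter SLC39A14 (ZIP14) moves it into the cytosol. Iron that is not used is stored in ferritin, a shell of the heavy chain FTH1 and the light chain FTL, from which the cargo receptor NCOA4 delivers it to lysosomes. The regulatory proteins ACO1 (IRP1) and IREB2 (IRP2) bind iron-responsive elements, short hairpins in mRNAs: in the leader of ferritin mRNAs they block translation, and in the tail of the TFRC mRNA they protect the transcript. Array signals report mRNA alone, so translation through these hairpins was not measured.

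Sequences of 3 members are shown, those of FTL and TFRC for a match to a searched element of regulation by iron or oxygen. That of SLC11A2 is shown for another reason, given below. RefSeq windows on GRCh38.p14, from 250 bases before to 50 bases after an annotated start, were matched for 8 of the 10 genes, 13 windows in all; none was used for FTH1 or SLC39A14. The iron-responsive loop was searched on the gene strand after the start as CAGTG with a C at the base 6 before it, and 1.71% of all 35116 windows held it. That search covered 50 bases after each start, so it could not find elements further into a leader or in the tail of an mRNA. It therefore cannot tell whether SLC11A2, SLC40A1 or other members carry such an element elsewhere. Among the 13 windows the loop was found in that of FTL alone, with its bulged C at base 33 of the transcript. In the stretch below (chr19:48965334-48965357, plus strand, bases 26 to 49 after the start) the capitals mark that C and the loop.
FTL: tctcttgCttcaaCAGTGtttgga
The hypoxia core was searched on both strands as ACGTG alone, which was present in 21.4% of all windows. It was found in the windows of TFRC (88 bases before the start) and FTL (11 bases before the start). The stretch from 116 to 56 bases before the start of TFRC (chr3:196082146-196082206, minus strand) is shown with the core in capitals.
TFRC: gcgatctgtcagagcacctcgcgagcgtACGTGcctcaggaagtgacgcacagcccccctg
SLC11A2 has 4 annotated starts. None of its windows held ACGTG, the E-box CACGTG (7.26% of all windows, each also holding ACGTG) or the antioxidant element TGACNNNGC (13.3%). The related letters GCGTG were not searched, and the stretch below holds them. The 250 bases upstream of the start with the most G and C (72.0%, against 40.0% to 48.4% for the other 3) are shown because SLC11A2 is the member that differed most (chr12:51026385-51026634, minus strand, no capitals). Which start these cells use was not measured.
SLC11A2: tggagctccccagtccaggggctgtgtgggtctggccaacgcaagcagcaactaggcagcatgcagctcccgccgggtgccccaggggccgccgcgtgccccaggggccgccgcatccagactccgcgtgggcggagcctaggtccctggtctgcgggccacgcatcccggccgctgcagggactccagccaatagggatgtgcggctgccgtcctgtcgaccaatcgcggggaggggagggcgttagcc

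The signals are in array units, scaled alike on every array, and the medians of all 54675 probe sets lay between 64.2 and 74.8. Duplicate arrays correlated at r of 0.968 to 0.976 across measured probe sets, which are not independent replicates, and siCTR array 2 correlated as closely with NO array 1 (0.968) as with its own duplicate (0.968). PIR itself read 392.3 and 382 in siPIR, against 13544 and 13180 in siCTR and 13990.2 and 14153 in NO. A probe set is called measured when a pool mean exceeded 70.2 (the median over all values). This held for 29692 probe sets and for 16 of the 22 of the iron genes. Differences are log2 differences of pool means of log2(signal + 5.4), followed by their range over the 4 pairs of arrays. That scale understates differences of dim genes. A probe set is called higher or lower when the difference was at least 2-fold and the arrays of the pools did not overlap. The rule weighs size and the error of hybridisation, and tests no condition.

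SLC11A2 stood apart from the other iron genes. It was higher in the siPIR pool than in each control pool, by about 2-fold against siCTR and somewhat more against NO, on 3 of its 4 measured probe sets. Probe set 203123_s_at read 2887.5 and 2942 in siPIR, against 1324 and 1353 in siCTR and 1132 and 1009.7 in NO. Probe set 203124_s_at read 3078 and 3414 in siPIR, against 1592 and 1596 in siCTR and 1370.0 and 1322 in NO. Probe set 203125_x_at, whose suffix marks probes that may bind other transcripts, read 726 and 793.5 in siPIR, against 352 and 404 in siCTR and 308 and 373.5 in NO. On all 3 the siPIR arrays lay above all 4 control arrays with no overlap. In these bulk samples, a change in the number of cells of a kind and a change in RNA per cell cannot be told apart.

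The log2 difference of 203123_s_at was 1.12 against siCTR (1.09 to 1.15) and 1.44 against NO (1.35 to 1.54), folds of 2.17 and 2.72. That of 203124_s_at was 1.02 (0.95 to 1.10) and 1.26 (1.16 to 1.37), folds of 2.03 and 2.40. Both were called higher than both controls. Probe set 203125_x_at differed by 0.998 (0.84 to 1.16) and 1.15 (0.95 to 1.35), and so was called against NO and fell just short of 2-fold against siCTR. Probe set 203124_s_at lay just inside that limit, and its difference from siCTR was 0.95 without siPIR array 2. Among all measured probe sets the 3 differences stood at the 94.8th to 96.1st percentile against siCTR and at the 97.1st to 98.4th against NO. SLC11A2 also differed between the controls in the same direction, by 0.15 to 0.32 higher in siCTR than in NO on these 3 probe sets.

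The other probe sets of SLC11A2 were dim and gave no common direction. The dim 210047_at read 61.8 and 73.5 in siPIR, against 111.9 and 70.8 in siCTR and 131 and 125 in NO. It differed by -0.38 from siCTR, with overlapping arrays, and by -0.87 from NO (-1.02 to -0.73), and was not called. The fifth probe set, 237106_at, was not measured and read 66.1 and 43.1 in siPIR, against 9.1 and 30.1 in siCTR and 51.0 and 63.3 in NO. Which transcript forms these probe sets bind was not examined.

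**Figure D1:**
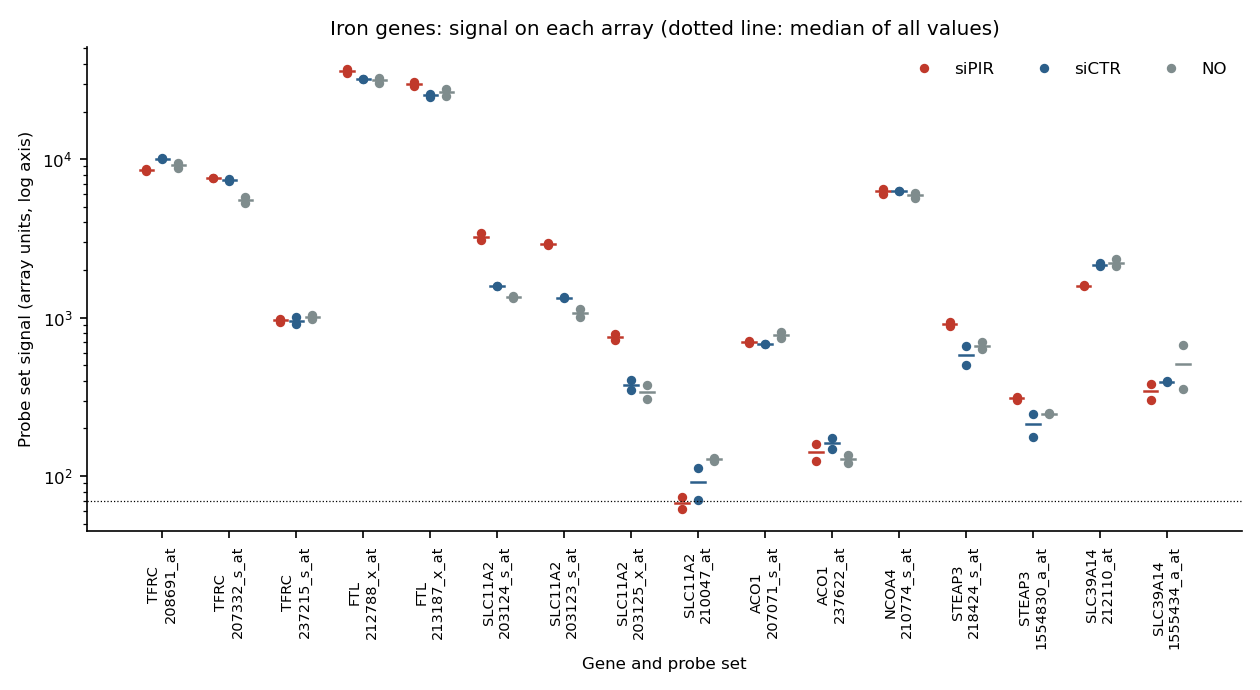
Signals of the 16 measured probe sets of the iron genes on each array, on a log axis; points are arrays, short bars are pool means and colours are the siPIR, siCTR and NO pools. The siPIR points of SLC11A2 203123_s_at (2887.5 and 2942) lie above those of siCTR (1324 and 1353) and NO (1132 and 1009.7), while those of FTL, NCOA4 and ACO1 lie close to the controls.

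TFRC, the receptor for transferrin, was bright and differed little. Its brightest probe set, 208691_at, read 8664 and 8452 in siPIR, against 10147 and 10039 in siCTR and 8850.2 and 9415 in NO. The siPIR arrays were below all control arrays, by -0.24 from siCTR (-0.26 to -0.21) and by -0.09 from NO (-0.16 to -0.03). Probe set 207332_s_at read 7598 and 7630 in siPIR, against 7336 and 7531 in siCTR and 5796 and 5296 in NO. It thus differed from NO by 0.46 (0.39 to 0.53) and from siCTR by 0.03 (0.01 to 0.06), and the siCTR pool was itself 0.42 above NO. Probe set 237215_s_at read 983 and 938 in siPIR, against 1004 and 911 in siCTR and 1039 and 976 in NO, with overlapping arrays. The 3 probe sets of TFRC therefore gave no common direction against NO. TFRC is known as a gene of growing cells. Of 15 proliferation markers on a separate list, 14 were called lower than both controls in siPIR, beside 3.22% of all measured genes. The summed signal of the 15 markers was 28949 and 29525 in siPIR, against 76240 and 79780 in siCTR and 69899 and 67506 in NO. Their part in the TFRC result was not tested. The remaining 2 probe sets of TFRC, 240686_x_at and 237214_at, were not measured and read 1.2 to 90.7 over all arrays.

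STEAP3, the endosomal ferric reductase, was modestly higher in siPIR on both of its probe sets. Probe set 218424_s_at read 938 and 886 in siPIR, against 503.5 and 667.5 in siCTR and 631 and 703 in NO. Probe set 1554830_a_at read 303 and 317 in siPIR, against 178 and 247 in siCTR and 245.5 and 250.5 in NO. On each, both siPIR arrays were above all 4 control arrays, while the siCTR arrays were further apart from each other than those of the other pools. The differences of 218424_s_at were 0.65 from siCTR (0.41 to 0.89) and 0.45 from NO (0.33 to 0.57). Those of 1554830_a_at were 0.55 (0.29 to 0.82) and 0.31 (0.27 to 0.36), and STEAP3 was called on neither. With an array left out, or with another pseudocount or scaling, the difference of 218424_s_at from siCTR ranged from 0.45 to 0.85 and kept its sign.

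SLC39A14, the ZIP14 transporter of zinc and iron, was modestly lower in siPIR. Probe set 212110_at read 1575 and 1607 in siPIR, against 2117 and 2210 in siCTR and 2104.5 and 2337 in NO, so that both siPIR arrays were below all control arrays. It differed by -0.44 from siCTR (-0.49 to -0.40) and by -0.48 from NO (-0.57 to -0.39), while siCTR and NO differed by -0.04, a sign that turned with median centring. Probe set 1555434_a_at pointed the same way at -0.21 (-0.38 to -0.04) and -0.51 (-1.13 to 0.11). Its siPIR arrays read 303 and 383, against 397 and 392.4 in siCTR and 668 and 355 in NO, and overlapped those of NO. Neither was called, and the remaining 1555433_at was not measured (13.2 and 45.9 in siPIR, against 17.9 and 36.3 in siCTR and 18.7 and 24.4 in NO).

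The storage genes FTL and NCOA4 were close to the controls. FTL, the ferritin light chain whose leader holds the loop shown above, read 37083 and 35074 in siPIR on 212788_x_at, against 31912 and 31978 in siCTR and 30401 and 32661 in NO. On 213187_x_at it read 28868 and 30632 in siPIR, against 24785 and 25979 in siCTR and 25125 and 27751 in NO. The siPIR arrays were above all control arrays on both probe sets, by small amounts. The differences were 0.17 (0.13 to 0.22) and 0.23 (0.15 to 0.31) from siCTR, and 0.19 (0.10 to 0.29) and 0.17 (0.06 to 0.29) from NO, which are folds of 1.13 to 1.17. With quantile normalization the differences of 212788_x_at were smaller, at 0.11 from siCTR and 0.08 from NO. These 2 signals stood at the 99.6th to the 99.8th percentile of all probe sets in every pool. Both probe sets carry the suffix for probes that may bind other transcripts, and ferritin genes have processed copies, so the FTL values are uncertain. NCOA4, the receptor that takes ferritin to lysosomes, read 6501 and 6019 in siPIR, against 6273 and 6315.5 in siCTR and 6092 and 5716 in NO. Its arrays overlapped in both comparisons, and it differed by -0.01 from siCTR (-0.07 to 0.05) and by 0.08 from NO (-0.02 to 0.19).

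ACO1, the iron regulatory protein that is an aconitase when it holds an iron-sulphur cluster, stayed within 0.15 of both controls on its main probe set. Probe set 207071_s_at read 691 and 716 in siPIR, against 678 and 685 in siCTR and 749 and 815 in NO. It differed by 0.05 from siCTR (0.01 to 0.08) and by -0.15 from NO (-0.24 to -0.06), with siPIR between the controls. The dim 237622_at differed by -0.18 and 0.13, with overlapping arrays. SLC40A1, ferroportin, had low signals in every pool. Probe set 223044_at read 2.3 and 0.6 in siPIR, against 28.2 and 14.9 in siCTR and 8.7 and 1.8 in NO. Probe set 233123_at read 16.6 and 70.4 in siPIR, against 11.9 and 75.7 in siCTR and 46.7 and 65.9 in NO. No difference is drawn from signals of this size.

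**Figure D2:**
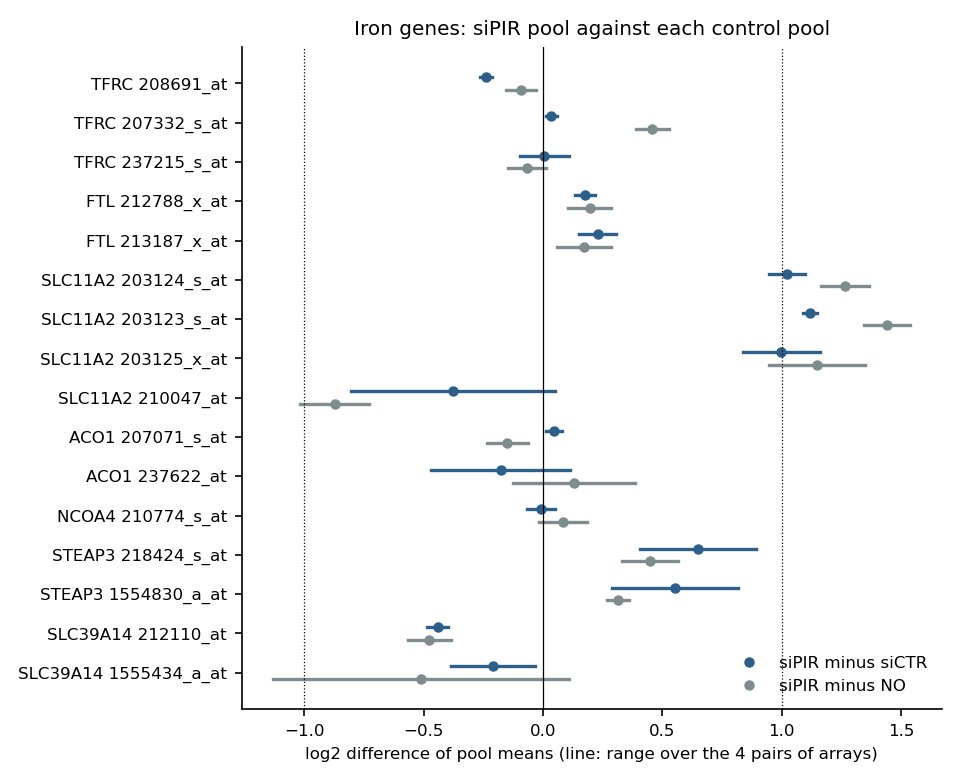
Log2 differences of the siPIR pool from siCTR and from NO for the 16 measured probe sets; points are differences of pool means, lines the range over the 4 pairs of arrays, and dotted lines mark 2-fold. SLC11A2 203123_s_at lies at 1.12 and 1.44, STEAP3 218424_s_at at 0.65 and 0.45, SLC39A14 212110_at at -0.44 and -0.48, and NCOA4 at -0.01 and 0.08.

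Counted over the 16 measured probe sets, 2 were called higher than siCTR and 0 lower, where 4.39% and 4.14% of all measured probe sets were called. Against NO, 3 were called higher and 0 lower, where the shares of all were 3.74% and 6.25%. Against both controls alike, 2 were higher and 0 lower, where the shares were 1.57% and 3.06%. All of these belong to SLC11A2, so the counts describe 1 gene measured several times. At 1.5-fold, 4 were higher than siCTR (3 of SLC11A2 and STEAP3 218424_s_at) and 0 lower, beside 11.8% and 10.4% of all. Against NO, 3 were higher (SLC11A2) and 1 lower (SLC11A2 210047_at), beside 11.1% and 14.8%. Against both, the 3 of SLC11A2 were higher and 0 lower, beside 6.16% and 7.66%. Arrays were apart on 12 of the 16 against siCTR and on 12 against NO, close to the 62.4% and 67.1% of all measured probe sets. The median difference of the 16 was 0.04 from siCTR and 0.15 from NO, beside 0.05 and -0.01 over all measured probe sets. The median size of a difference, taken without its sign, was 0.23 and 0.38, beside 0.32 and 0.35 over all.

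A fit across all measured probe sets with limma on the 3 pool means took siCTR and NO as 2 samples of cells without PIR siRNA, which leaves 1 degree of freedom. In that fit 203123_s_at of SLC11A2 was 1.28 ± 0.24 higher in siPIR (log2 difference ± SE), with a limma adjusted p of 0.25. Of all 29692 probe sets, 0 passed an adjusted p of 0.05 in either direction (0.0%) in limma, while 4844 had an unadjusted p below 0.05. Of the 16 iron probe sets 3 did, all of SLC11A2. The outcome depended on the settings of the fit. Among the 14864 probe sets with a pool mean above 458.4, 9.0% were higher and 10.9% lower in limma at 0.05, among them the same 3 of SLC11A2, with limma adjusted p of 0.0028 to 0.0037. With a variance prior that follows intensity, 7.6% and 8.41% of all measured probe sets passed in limma. Among the iron genes these were the same 3 (limma adjusted p of 5.6e-11 to 2.3e-05), STEAP3 218424_s_at (limma adjusted p = 0.044, higher) and SLC39A14 212110_at (limma adjusted p = 0.048, lower). With 1 residual degree of freedom, these p-values rest on a spread shared across probe sets and not on replicates. In none of these fits did TFRC, FTL, NCOA4 or ACO1 pass, with limma adjusted p of 0.21 to 0.98.

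The siCTR pool against the NO pool asks what the non-targeting siRNA alone goes with. Of the 16 measured iron probe sets 0 were called higher and 0 lower, where 1.28% and 3.53% of all measured probe sets were called. Arrays were apart on 8 of the 16, beside 51.9% of all. The differences ran from -0.50 (SLC11A2 210047_at) to 0.42 (TFRC 207332_s_at), with a median size of 0.20, the same as over all measured probe sets. Since both siPIR comparisons share the siPIR arrays, their agreement is not independent.

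Other genes of iron handling came from 5 lists of 102 genes in all, each gene represented by its brightest probe set. Of 82 measured, 1 was called higher than both controls and 1 lower, beside 1.52% and 3.22% of all 13071 measured genes, and 80 were not called. At 1.5-fold 4 were higher and 6 lower, beside 6.37% and 7.55% of all genes. The gene called higher was FURIN, a protease that cuts the hepcidin precursor and hemojuvelin, a BMP co-receptor that induces hepcidin. FURIN read 885 and 893 in siPIR, against 363 and 391 in siCTR and 264 and 296 in NO, differences of 1.23 and 1.65, and was also 0.43 higher in siCTR than in NO. The gene called lower was RAB12, a small GTPase that sends TFRC to degradation. RAB12 read 167 and 173 in siPIR, against 463 and 355.5 in siCTR and 743 and 699 in NO. Its differences were -1.23 and -2.05, siCTR lay 0.82 below NO, and its 1 measured probe set may bind other transcripts. The call of RAB12 was lost when such shared probe sets were left out and when the mean over the probe sets of a gene was used.

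Among 16 measured genes of other uptake and trafficking, 0 were called higher than both controls and RAB12 alone lower, with list medians of 0.10 from siCTR and 0.13 from NO. Over all measured genes the medians were 0.05 and 0.03. SLC39A8 (ZIP8), the closest relative of SLC39A14 in metal uptake, read 448 and 522 in siPIR, against 852 and 936 in siCTR and 1045 and 1004 in NO, differences of -0.88 and -1.07. It was called lower against NO alone, and that call was lost with median centring (-0.99) and without siPIR array 1 (-0.96). CUBN, an endocytic receptor for transferrin known from the kidney, differed by 1.24 and 0.90, and LRP1, a receptor for haem bound to hemopexin, by 1.00 and 0.67. Both were dim and were called higher against siCTR alone. The call of LRP1 lay at the limit and was lost without siPIR array 1 (0.76), while its other measured probe set differed by 1.73 from siCTR and 2.59 from NO. Of all measured genes, 3.75% were called higher and 4.26% lower than siCTR, and 3.67% higher and 5.48% lower than NO.

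Of 13 measured chaperones, oxidases and regulators of export, FURIN was higher, 0 were lower, and the medians were -0.07 and -0.16. The lowest were BMP6, a ligand that induces hepcidin in the liver (-0.997 and -1.22), and HAMP, hepcidin itself (-0.62 and -0.89), both dim, with siPIR signals of 63.0 and 47.5 for BMP6 and 57.0 and 99.7 for HAMP. BMP6 was called lower against NO alone. NEO1, a partner of hemojuvelin, differed by 0.46 and 0.49. Of 8 measured genes of iron sensing and other mRNAs with iron-responsive elements, none passed the 2-fold rule in both comparisons (0 higher, 0 lower), and the medians were 0.03 and 0.19. EPAS1, the hypoxia factor HIF-2α, whose own leader holds such an element, read 7543 and 7586 in siPIR, against 4174 and 4735 in siCTR and 3611 and 3642 in NO. The siPIR arrays of EPAS1 were above all control arrays, by 0.77 and 1.06, and its other measured probe set differed by 1.17 and 1.15. This representative probe set of EPAS1 was called higher against NO alone. HERC2, a ubiquitin ligase for NCOA4, differed by 0.58 and 0.63, RBX1, a ring subunit of cullin ligases, by -0.02 and -0.09, and CIAO3 of cytosolic iron-sulphur assembly by -0.17 and -0.30. The direction of CIAO3 and RBX1 turned under some settings.

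Of 27 measured genes of mitochondrial iron and iron-sulphur cluster assembly, 0 were called, with medians of -0.07 and -0.01. ABCB10, an inner membrane transporter that stabilises the iron importer mitoferrin, was the lowest, at -0.80 and -0.98, with 955 and 1097 in siPIR, against 1853 and 1725 in siCTR and 2076 and 1978 in NO. CIAPIN1, of cytosolic iron-sulphur assembly, differed by -0.63 and -0.49, the cluster scaffold ISCU by 0.35 and 0.39, and the dim assembly factor IBA57 by 0.39 and 0.32, where its 4 measured probe sets disagreed in sign. Of 18 measured genes of haem synthesis, breakdown and transport, 0 were called, with medians of 0.07 and 0.03. CPOX (-0.67 and -0.57) and FECH (-0.76 and -0.57), enzymes of the last steps of haem synthesis, were the lowest, though another probe set of FECH differed by 0.23 from siCTR. BLVRB, a biliverdin reductase, differed by 0.42 and 0.35 and the haem-binding protein HEBP2 by 0.38 and 0.36.

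**Figure D3:**
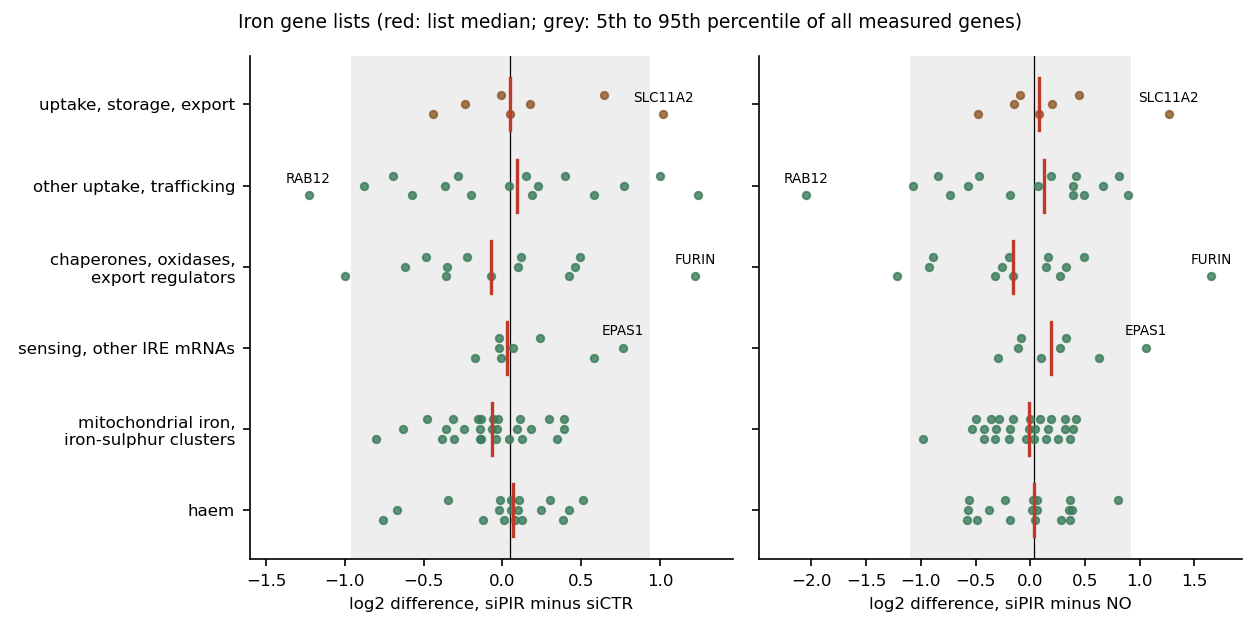
Log2 differences of the siPIR pool from siCTR (left) and NO (right) for the representative probe set of each measured gene in the described list (top) and in the 5 other iron lists; red bars are list medians, the black line the median of all measured genes and the grey band their 5th to 95th percentile. SLC11A2 (1.02 and 1.26), FURIN (1.23 and 1.65), RAB12 (-1.23 and -2.05) and BMP6 (-0.997 and -1.22, not labelled) lie outside the band in both panels, and the list medians lie between -0.16 and 0.19.

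Markers of cell types were read from the same arrays. All 7 melanocyte lineage markers with a probe set were measured, 0 were called, and their summed signal was 103249 and 101359 in siPIR, against 95250.3 and 100933 in siCTR and 97479 and 103240.0 in NO. Of 8 fibroblast markers 4 were measured and 0 called. Their summed signal was higher in siPIR, at 30725 and 28961, against 17875 and 19273 in siCTR and 15917 and 15860 in NO, nearly all from COL1A2 and FAP, while COL3A1, DCN, PDGFRB and THY1 were not measured. The leukocyte markers had 2 of 6 measured, with sums of 435 and 414 in siPIR, against 308 and 276 in siCTR and 303 and 347 in NO. The endothelial markers had 3 of 8, with 1176 and 943 in siPIR, against 795 and 762 in siCTR and 958 and 1006 in NO. The keratinocyte markers had 1 of 7, with 2708.5 and 2810 in siPIR, against 3764 and 3355.5 in siCTR and 3294 and 3438 in NO, and the erythroid markers 4 of 4, with 1269 and 703 in siPIR, against 639 and 1025 in siCTR and 861 and 852 in NO. These counts are among markers with a probe set. No marker was listed at 0, and the part of these markers in the results on SLC11A2 and the other iron genes was not tested. ACTB, whose signals at either end of the mRNA track RNA integrity, had a 3' over 5' ratio of 1.13 in siPIR on both arrays, against 1.23 to 1.265 in siCTR and NO.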

How the data were processed

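The authors deposited 1 linear intensity per probe set, from GCOS, the Affymetrix array software, per the submitters' processing notes. Neither its version nor its settings were given there. After trimming 2% of probe sets at either end, each array had a mean of 500.07, the pattern of global scaling, which hides changes in total RNA. All 6 columns were matched to samples and 0 were left over. No detection calls were used.

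The 2 arrays of a pool were averaged on the log2 scale after adding 5.4, the 10th percentile of the deposited intensities. The annotation gave 1 gene for 41097 of 54675 probe sets, several genes for 1801 and no entry for 11777. Of the first, 99.87% matched a RefSeq gene of GRCh38.p14 by Entrez identifier, and no array coordinates were used. The fit used limma 3.58.1 in R 4.3.3 with Benjamini-Hochberg adjustment over all measured probe sets, and Python 3.11.15 did the rest. Scripts were tested on simulated data. Named genes were all members, PIR, and from each other list the genes called against both controls and the 2 highest and 2 lowest by the smaller difference. The members and lists were chosen with earlier results of these data known. Precision is limited by 1 pool and 2 arrays per group.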

Additional observations from a re-analysis of the deposited data

How the results depend on the processing

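Alternatives were 4 times the pseudocount and the pseudocount divided by 4, quantile normalization, centring on the median, no filter on dim probe sets, a filter at 458.4, calls at 1.5-fold, each array left out, other gene representatives and an intensity trend in limma. Of 160 counts under alternatives, 136 were within 1.5 times of those reported, and none of the called differences of a member changed sign. Of 480 differences of member probe sets, 15 changed sign, 14 of them under 0.3 in size. Of the other named genes, 5 differences changed sign (CIAO3, RBX1 and IBA57). The count of iron probe sets higher than siCTR was 2, and became 1 with centring, 4 at 1.5-fold and 1 to 3 with an array left out (1 without siPIR array 2). The count lower than siCTR was 2 without a filter and 0 to 1 with an array left out (1 without siCTR array 2). The count lower than NO was 1 at 1.5-fold. For siCTR against NO, 2 were higher and 1 lower without a filter. Against both controls, 1 was higher with centring and 1 to 3 with an array left out. In limma, 3 members were higher with the filter at 458.4, and 4 higher and 1 lower with the trend, where 0 were in the fit as reported and 0 with an array left out; the smallest limma adjusted p of a member ran from 5.6e-11 (trend) to 0.53 (no filter). The other iron genes higher than both controls numbered 2 without a filter, 4 at 1.5-fold and 1 to 2 with an array left out. Those lower numbered 2 with the pseudocount divided by 4, quantile normalization or centring, 6 at 1.5-fold, 0 with the mean over probe sets or without shared probe sets (RAB12 lost), and 1 to 2 with an array left out. The causes were not tested. By design, leaving out 1 array of a pool leaves fewer pairs that could overlap, and fewer probe sets enter the fit at 458.4. With centring the median of all measured probe sets for siCTR against NO was 0.08, beside -0.04 as reported. No paired analysis was possible because the numbers of the arrays mark repeat hybridisations of 1 RNA pool, which were averaged, so that no pairs of samples exist.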

Other observations

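Several genes of the uptake and sensing lists outside the naming rule were picked after their values were seen. TF, transferrin itself, was bright and higher in siPIR on its brightest probe set, with differences of 0.58 from siCTR and 0.81 from NO. It read 27698 and 28725 in siPIR, against 18342 and 19442 in siCTR and 15954 and 16125 in NO. Over the 3 measured probe sets of TF the differences ran from 0.47 to 1.01 from siCTR and from -0.17 to 0.81 from NO. STEAP1 was lower, with 1362 and 1417 in siPIR, against 2137 and 2011 in siCTR and 2253 and 2379 in NO (-0.58 and -0.73). CYBRD1, the reductase known from the gut surface beside SLC11A2, was lower on its brightest probe set, with 2847 and 2618 in siPIR, against 4392 and 4438 in siCTR and 4837 and 4938 in NO (-0.69 and -0.84), while its other measured probe set differed by 0.35 and 0.47. FBXL5, the iron-sensing subunit of the ligase that degrades IREB2, differed by -0.01 and -0.11, with 3513 and 3753 in siPIR, against 3635 and 3677.5 in siCTR and 3808 and 4021 in NO. None of the 4 genes was called at 2-fold on its brightest probe set, and calls on their other probe sets are not given here.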
